A study of Rattus norvegicus with 2 samples.

Results

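The BCL2 family decides whether the outer membrane of the mitochondrion stays closed or is opened to release cytochrome c, the step that commits a cell to intrinsic apoptosis. Of 10 family genes chosen by symbol for this account, 7 had a row among the 15409 gene symbols of the deposited table, and they are described here: the prosurvival genes Bcl2 and Bcl2l1, the effectors Bax and Bak1, and the BH3-only genes Bcl2l11, Bid and Bad. The other members chosen, Mcl1, Bbc3 and Pmaip1, were not analysed here. RNA was sequenced from RBL-2H3, a cell line of rat basophilic leukaemia origin that serves as a model of mast cells. There were 2 libraries. For the saline library the cells had been given normal saline. For the treated library they had been given PM2.5, the fine fraction of airborne particles, plus IgE and DNP-HSA, its antigen, so that particle and antigen effects cannot be told apart. Whether IgE and antigen were also added to the saline cells is not in the labels, nor is the time of exposure. With 1 library per group there was no replicate, no SD and no test between the conditions.

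As background, prosurvival proteins such as BCL2 and BCL-XL bind their relatives and keep them inactive. BAX and BAK form the pore in the mitochondrial membrane when they are freed or activated. BH3-only proteins sense stress and either occupy the prosurvival proteins or activate the effectors directly. In mast cells this balance is known for setting how long the cells live after growth factor loss and after receptor crosslinking, with BIM, the product of Bcl2l11, as a main trigger of death.

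A level below is a normalised read count, that is, reads divided by the library's size factor. A difference is given as a log2 fold, treated divided by saline, after 1 was added to each level. The brackets after it hold the exact 95% interval of the ratio, made from the treated share of the gene's reads and covering counting error only. A gene was counted as higher or lower when its log2 fold reached 1 either way, that is 2-fold, with a level of at least 1 in at least 1 library. Levels are not corrected for transcript length, so levels of different genes are not ranked. Over all listed transcripts, reads summed to 7279671 in the saline library and 3964955 in the treated one. Of 12 mast cell and basophil markers 10 were listed, 10 with reads in the saline and 9 in the treated library, with summed levels of 27532 and 26027. Most of these sums came from Kit and Gata2, and single markers differed both ways, with log2 folds of 1.74 for Cpa3, 0.79 for Ms4a2, 0.62 for Fcer1g, -0.45 for Gata2 and -1.07 for Hdc. Mcpt8l3 was at 0 in the treated library. No lymphocyte or neutrophil marker was listed, of 4 sought for each. The macrophage markers Csf1r, Adgre1 and Cd68 had summed levels of 1273 in the saline and 510.4 in the treated library, with Cd68 at 0 in the latter. Fibroblast markers summed to 16.5 and 24.8, and Krt8 was the 1 epithelial marker listed (9.54 and 19.8). The part of these markers in the results below was not tested.

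The 250 bases before the start of Bcl2l11 are shown because this gene had the lowest log2 fold among the BH3-only genes. A further reason was that Foxo1 and Foxo4 were themselves among the genes with large differences (below), while Foxo3 lay within 2-fold at -0.40. FOXO factors are known activators of Bcl2l11 transcription. Any part of these factors in the Bcl2l11 difference was not tested. The sequence is from RefSeq, build GRCr8, plus strand, chr3:135819792-135820041. Capitals mark the FOXO motif TGTTTAC, here on the opposite strand, which lies at -204 to -198 from the start.
Bcl2l11: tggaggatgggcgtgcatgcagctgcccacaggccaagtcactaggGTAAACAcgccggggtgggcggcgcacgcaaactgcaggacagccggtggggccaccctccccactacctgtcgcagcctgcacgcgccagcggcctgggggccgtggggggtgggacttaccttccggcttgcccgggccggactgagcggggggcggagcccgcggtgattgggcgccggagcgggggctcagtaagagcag

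Promoter windows were found for 6 of the 7 genes, 9 windows in all, and those of the Bcl2l1 starts overlap in part. Bax had no window. The FOXO motif was also present before a start of Bad, whose log2 fold was -0.038, and 3.21% of the 33469 windows of this length hold it. AP-1 (TGANTCA, in 6.34% of windows), CRE (TGACGTCA, 1.59%), EGR1 (GCGGGGGCG or GCGTGGGCG, 2.85%), NF-kappaB (0.314%) and E-box (CACGTG, 5.59%) strings matched no window of the 7 genes. ETS strings (CCGGAAG, 7.27%) were present for Bcl2l1 and Bcl2l11, the E2F string (TTTCGCGC, 0.248%) for Bcl2l1, and NFAT strings (GGAAAA, 21.6%) for Bcl2 and Bcl2l1. Sp1 strings (GGGCGG, 30.5%) were present for Bak1, Bcl2l11 and Bid, CCAAT (34%) for Bcl2l1 and Bcl2l11, and TATAAA (12.9%) for Bcl2. Each string was searched on both strands, and the Sp1 and EGR1 strings can overlap. A match is a run of letters, not a site shown to be bound.

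None of the 7 genes passed the 2-fold rule. 0 of 7 were higher and 0 of 7 lower in the treated library. Of the 15097 symbols with a level of at least 1 in at least 1 library, 12.1% were called higher and 19.1% lower. Among the 9041 symbols with a mean level of at least 50, 6.85% were called higher and 7.4% lower. The 7 log2 folds ranged from -0.63 to 0.28 with a median of -0.038, and the median of the 15097 symbols was -0.070. Of the 7 genes, 3 had an interval wholly below 0, namely Bax, Bak1 and Bcl2l11, and 4 had an interval that held 0. Such intervals were common: 26.8% of symbols with a level of at least 1 had one wholly below 0 and 22.8% one wholly above 0. These shares include symbols with few reads and wide intervals, so they are not matched to the 7 genes in reads. Both libraries are shown gene by gene in the plot of levels.

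**Figure D1:**
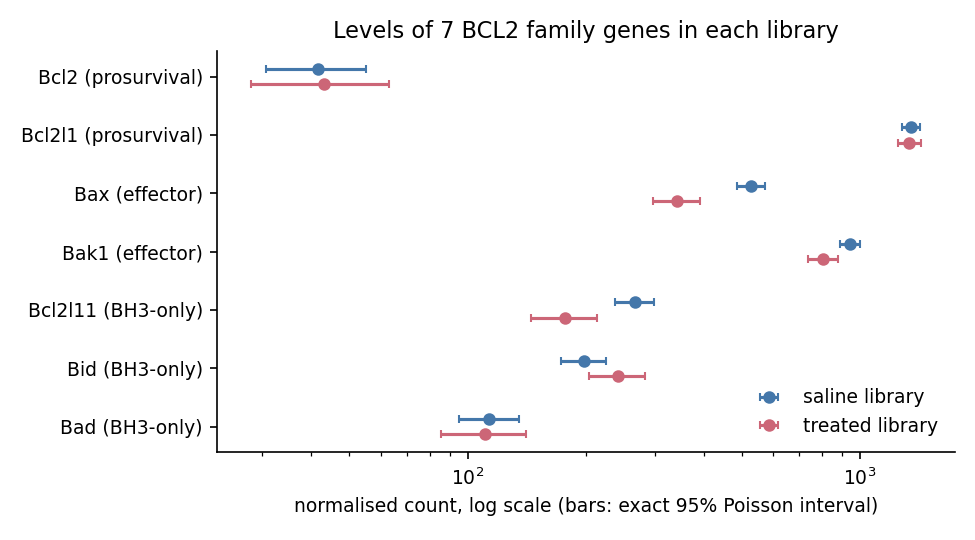
Normalised read count of each of the 7 genes (log axis) in the saline and the treated library, 1 library each, with exact 95% Poisson intervals for counting error. Bax, Bak1 and Bcl2l11 lie lower in the treated library, Bid lies higher with overlapping intervals, and Bcl2, Bcl2l1 and Bad nearly coincide. Levels are not per length, so genes are not to be ranked against each other.

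The prosurvival genes Bcl2l1 and Bcl2 had nearly equal levels in both libraries. Bcl2l1 (ENSRNOG00000007946), which encodes BCL-XL, had a level of 1349 in the saline library (1555 reads) and 1336 in the treated library (809 reads). Its log2 fold was -0.013 (-0.14 to 0.11), an interval for counting error alone. Bcl2 (ENSRNOG00000002791), the founding member of the family, had levels of 41.6 (48 reads) and 42.9 (26 reads). The log2 fold of Bcl2 was 0.044 (-0.70 to 0.76), an interval wide enough to hold a difference of over 0.5 either way. A listed pseudogene, Bcl2l1-ps1, had 157 and 97 reads and a log2 fold of 0.23 (-0.15 to 0.61), and reads could be split between it and Bcl2l1.

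Both effectors were on the low side. Bax (ENSRNOG00000020876), a cytosolic protein that moves to mitochondria on activation, had a level of 528.2 in the saline library (609 reads) and 341.9 in the treated library (207 reads). Its log2 fold was -0.63 (-0.86 to -0.40), the lowest of the 7 genes. Bak1 (ENSRNOG00000000485), the effector that resides in the mitochondrial membrane, had levels of 944.5 (1089 reads) and 806 (488 reads). The log2 fold of Bak1 was -0.23 (-0.39 to -0.073), and its treated level was 0.853 times its saline level. For Bax the same ratio was 0.647. The ratio of Bak1 to Bax reads differed between the libraries by 0.40 on the log2 scale (0.12 to 0.68), an exact interval of the odds ratio in which size factors cancel. Lengths cancel only where the transcript make-up is alike in both libraries, which for Bax it was not (below).

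The BH3-only genes went different ways. Bcl2l11 (ENSRNOG00000016551), which encodes BIM, had levels of 266.3 (307 reads) and 176.7 (107 reads). Its log2 fold was -0.59 (-0.92 to -0.27). Bid (ENSRNOG00000012439), whose product is cut by caspase-8 and so links death receptors to mitochondria, had levels of 197.8 (228 reads) and 241.1 (146 reads). Its log2 fold of 0.28 (-0.024 to 0.59) was the highest of the 7 genes, and its interval just held 0. Bad (ENSRNOG00000021147), held inactive by phosphorylation through survival kinases, had levels of 113.6 (131 reads) and 110.7 (67 reads), a log2 fold of -0.038 (-0.49 to 0.40). The ratio of Bid to Bcl2l11 reads was 1.84 times as large in the treated as in the saline library, a log2 change of 0.88 (0.42 to 1.33), and this was the widest separation inside the BH3-only class.

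**Figure D2:**
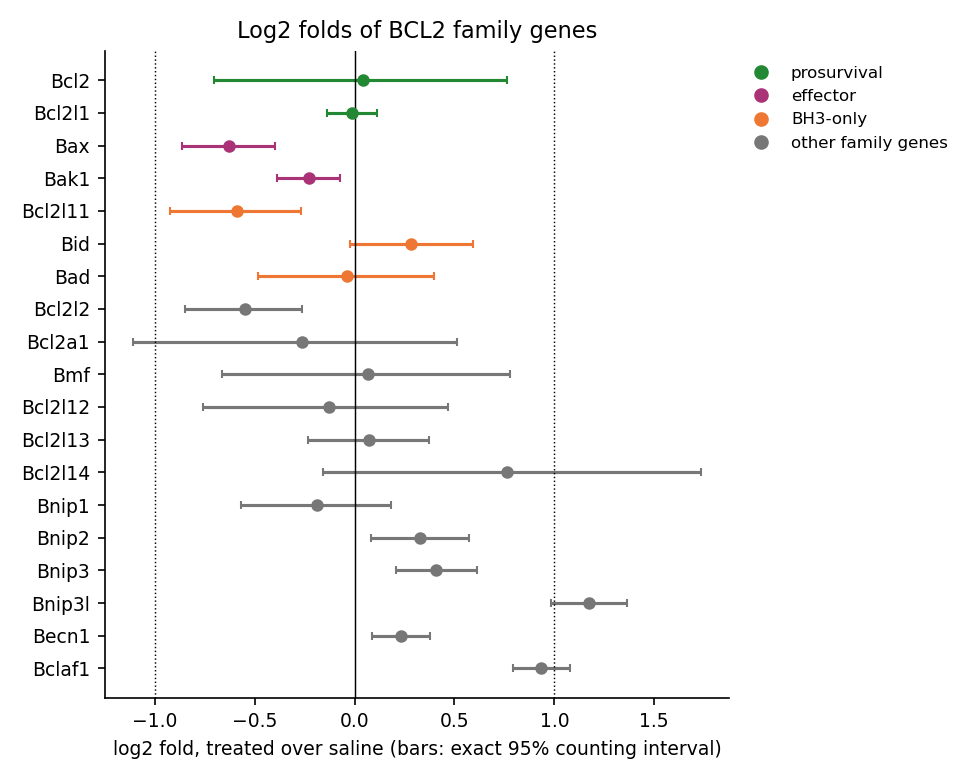
Log2 fold of the treated over the saline library for the 7 genes, coloured by class, and for 12 further family genes in grey, with exact 95% counting intervals; dotted lines mark 2-fold. Bnip3l at 1.17 lies beyond the upper line, and the 7 genes lie between -0.63 and 0.28.

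Set against each other by class, the sum of Bcl2 and Bcl2l1 stood for the prosurvival genes and was nearly equal in both libraries. The effector sum was lower in the treated library, by less than 2-fold. The summed prosurvival level was 1390 in the saline and 1379 in the treated library, a log2 fold of -0.012 (-0.13 to 0.11). The summed effector level was 1473 and 1148, at -0.36 (-0.49 to -0.23). For the BH3-only genes the sums were 577.6 and 528.5, at -0.13 (-0.33 to 0.066). Sums are not corrected for length, so the weight of a gene in them depends on its transcript length. The ratio of prosurvival to effector reads was accordingly 1.27 times as large in the treated library, a log2 change of 0.35 (0.17 to 0.53). It was 0.62 with Bak1 left out, 0.22 with Bax left out and 0.14 with the transcript of highest mean level of each gene alone. The 2 Bax transcripts were close in mean level, and with the other one in its place, an alternative chosen after the data were seen, the change was 0.32.

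The ratio of prosurvival to BH3-only reads changed by 0.12 (-0.11 to 0.35), with an interval that held 0. It was -0.19 without Bcl2l11 and 0.39 without Bid, so its sign followed the choice of BH3-only genes. Nearly all prosurvival reads were those of Bcl2l1, and its pairings show where the differences lay. Bcl2l1 over Bax changed by 0.61 (0.35 to 0.88) and Bcl2l1 over Bcl2l11 by 0.58 (0.23 to 0.93). Bcl2l1 over Bak1 changed by 0.22 (0.015 to 0.42). Bcl2l1 over Bid went the other way at -0.30 (-0.63 to 0.035), and Bcl2l1 over Bad was at 0.025 (-0.43 to 0.49). Mcl1, a main prosurvival gene of many blood cells, does not enter these ratios. Nor do the prosurvival genes Bcl2l2, at -0.55 (-0.85 to -0.26), and Bcl2a1, at -0.27 (-1.11 to 0.51), which are described below.

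**Figure D3:**
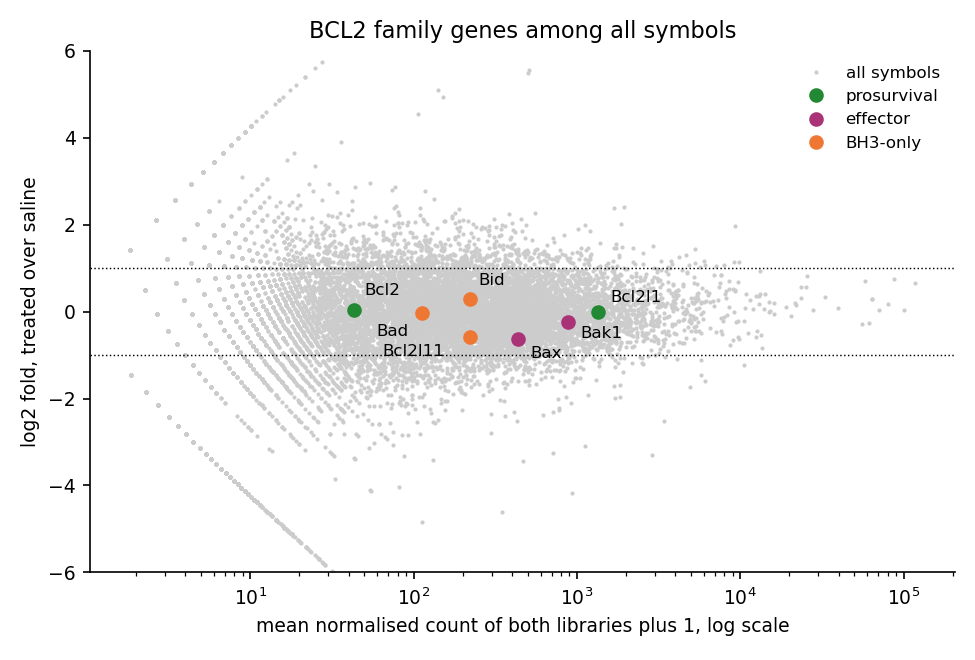
Log2 fold against the mean normalised count plus 1 (log axis) for 15067 symbols in grey, with the 7 genes coloured by class; 30 symbols beyond 6 on the vertical axis are not drawn, and dotted lines mark 2-fold. The 7 genes lie inside the main cloud, Bax and Bcl2l11 in its lower part.

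The Bax difference was unevenly spread over its transcripts. The table lists 2 of them, both protein coding. ENSRNOT00000087061 had 331 reads in the saline and 78 in the treated library, levels of 287.1 and 128.8, and a log2 fold of -1.15 (-1.53 to -0.80). ENSRNOT00000028328 had 278 and 129 reads, levels of 241.1 and 213.1, and a log2 fold of -0.18 (-0.49 to 0.13). The share of Bax reads on ENSRNOT00000028328 was thus 45.6% in the saline library (exact Clopper-Pearson interval 41.6 to 49.7) and 62.3% in the treated library (55.3 to 68.9), 16.7 points more. Shifts of this kind were frequent. Among 1698 symbols with 2 or more transcripts and at least 100 reads in each library, the leading transcript's share moved by at least 10 points in 33.4%. Of the 4 family genes in that comparison, 1 passed the mark, namely Bax. No source used here says how reads were divided between transcripts.

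The other genes with several transcripts kept their make-up more closely. Of the Bcl2l1 reads 75.1% (72.9 to 77.2) were on ENSRNOT00000010762 in the saline and 71.8% (68.6 to 74.9) in the treated library. ENSRNOT00000091419 held 22.6% and 25.1%. The rare ENSRNOT00000081272 had 13 and 18 reads and a log2 fold of 1.32 (0.29 to 2.55). For Bcl2l11, ENSRNOT00000051069 held 95.1% and 94.4% of reads, and for Bak1, ENSRNOT00000000576 held 99.8% and 99.6%. Bcl2 had 72.9% and 69.2% of its few reads on ENSRNOT00000003768. Bid and Bad had 1 transcript each.

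**Figure D4:**
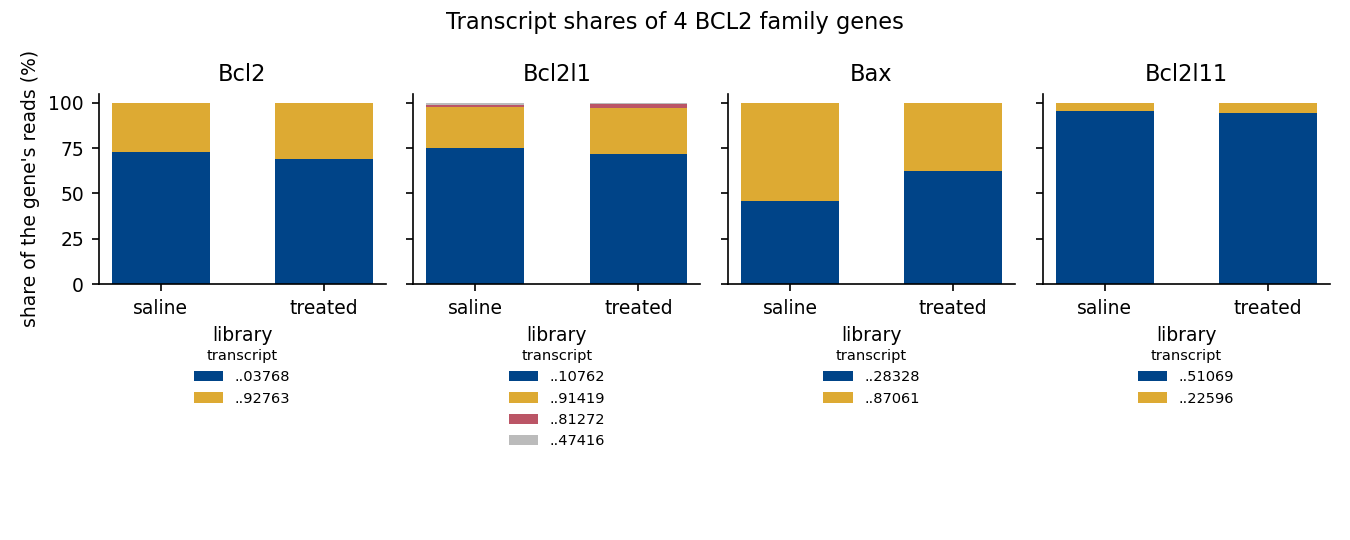
Share of each gene's reads (%, vertical axis from 0) on its listed transcripts in the saline and the treated library for Bcl2, Bcl2l1, Bax and Bcl2l11; legends give the last digits of the transcript identifiers. The leading Bax transcript holds 45.6% of reads in the saline and 62.3% in the treated library, while the other leading transcripts differ by less than 5 points.

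In the authors' deposited table, the p-values of the 14 transcripts of these genes ran from 0.162, for Bax ENSRNOT00000087061, to 0.968. The lowest adjusted p-value among them in the authors' deposited table was 0.92, and the lowest p-value of any transcript there was 0.034. The authors' selection of mRNA held 57 transcripts, and 0 of the 14 were among them. The 57 are 0.28% of all listed transcripts, non-coding ones included. No source used here names the test behind those p-values, which set 1 library against 1.

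Among 12 further listed genes of the wider family, 1 was higher and 0 were lower, with a median log2 fold of 0.15. Bnip3l, a mitochondrial receptor for mitophagy, was higher at 1.17 (0.98 to 1.36), with 423 reads in the saline and 501 in the treated library. Its relative Bnip3 was at 0.41 (0.21 to 0.61) and Bnip2 at 0.33 (0.081 to 0.57). Bclaf1, a nuclear factor named for its binding to BCL2 family proteins, was at 0.93 (0.79 to 1.08) and Becn1, the autophagy protein with a BH3 motif, at 0.23 (0.087 to 0.38). Bcl2l2, the prosurvival gene that encodes BCL-W, was at -0.55 (-0.85 to -0.26), with levels of 324.4 and 221.3. Bcl2a1, the prosurvival gene known to be induced by receptor crosslinking in mouse mast cells, had 46 and 20 reads and lay at -0.27 (-1.11 to 0.51). The BH3-only gene Bmf (0.068), Bcl2l12 (-0.13), Bcl2l13 (0.073), Bcl2l14 (0.76) and Bnip1 (-0.19) had intervals that held 0.

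The machinery downstream of the membrane pore had members on both sides. In the list of apoptosome and caspase genes, 4 of 18 were higher and 2 lower, with a median of -0.13. Cycs, which encodes the cytochrome c that BAX and BAK release, was higher at 1.43 (1.21 to 1.67), with levels of 235.9 and 639.2. Casp8ap2, a caspase-8 partner, was higher at 1.49 (1.099 to 1.90). Dffa, the inhibitor subunit of the caspase-activated nuclease, was lower at -1.005 (-1.52 to -0.54), a call lost under 3 of 5 other scalings or pseudocounts. The further calls, named after their values were seen, rested on few reads. Casp4 had 21 and 24 reads. Casp1 had 0 and 6 reads, and the exact limit of its log2 fold nearest to 0 was 1.16. Dffb had 34 and 0 reads, with that limit at -2.20. Casp1 and Dffb passed the level filter only through the library in which they had reads. Casp4 was no longer called with a pseudocount of 5, at 0.94. Parp1, a caspase substrate, was at -0.14 and Acin1 at 0.15.

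Inhibitors of apoptosis proteins block caspases, and HTRA2 and SMAC, the product of Diablo, relieve that block once released from mitochondria. In this list, 3 of 10 were higher and 1 lower, with a median of 0.29. Xiap, the direct caspase inhibitor, was higher at 1.08 (0.72 to 1.46), with levels of 101.5 and 216.4. Birc2, which encodes the ubiquitin ligase cIAP1, was higher at 1.06 (0.81 to 1.32). Birc3, named after its value was seen, was at 1.003 (0.78 to 1.23) and was not called with the library totals made equal (0.95) or with a pseudocount of 5 (0.99). Htra2 was lower at -1.02 (-1.36 to -0.70), with levels of 326.1 and 160.2, and just missed the rule at -0.999 when scaled by the median of ratios. Birc6 lay at 0.24 and Arel1 at -0.65.

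Among death receptors and adaptors, 0 of 9 were higher and 1 was lower, with a median of -0.52. Fadd, the adaptor that brings caspase-8 to death receptors upstream of BID, was the lower one at -1.72 (-2.23 to -1.26), with levels of 235.9 and 71. Traf2, an adaptor of TNF receptors, lay at -0.92 (-1.31 to -0.55), Ripk1 at -0.65 and Cyld at 0.65.

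The list of transcription factors known for acting on BH3-only genes, with partners of such factors, had the lowest median, at -1.04, or -0.76 with a level of at least 50 required. In it, 0 of 13 were higher and 7 lower. Foxo1, a factor that activates Bcl2l11 when survival kinases are off, was lower at -1.33 (-1.57 to -1.09), with levels of 738.1 and 294. Foxo4, of the same family, was lower at -1.63 (-2.19 to -1.13), and Foxo3, named here beside them after its value was seen, lay at -0.40. Trib3, a pseudokinase of the stress response, was lower at -1.69 (-1.96 to -1.44) and Jun, the JNK target, at -1.08 (-1.16 to -1.003). Runx1 (-1.04), Runx3 (-1.19) and Smad3 (-1.24, 33 against 7 reads) were the others counted, and are named for that reason. Atf4 lay at -0.48.

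Regulators of the proteins also differed in both directions. In the list of kinases, phosphatases and 14-3-3 proteins that control BAD and BIM, 1 of 30 was higher and 3 lower, with a median of 0.067. Of the kinases that phosphorylate BAD, Rps6ka1 was lower at -1.26 (-1.40 to -1.12) and its paralogue Rps6ka3 higher at 1.09 (0.89 to 1.29). Pim3 was lower at -1.10 (-1.47 to -0.75). Sfn, with 8 and 0 reads, was the remaining lower one by the rule, named after its value was seen, but its interval reached 0.16 and so held 0. Ywhaz lay at 0.32 and Ppp1ca at -0.31. Among genes of MCL1 turnover, 2 of 16 were higher and 1 lower, with a median of 0.33. The ubiquitin ligase subunits Cul5 and Skp1 were higher at 1.23 (0.93 to 1.56) and 1.16 (0.998 to 1.33), Ddx3x lay at 0.96 and Huwe1, the ligase MULE, at -0.34. Rnf183, lower on 28 and 4 reads, is named after its value was seen.

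Among partners of BAX and BAK at the mitochondrial membrane and related channels, 1 of 24 was higher and 1 lower, with a median of 0.19. Dnm1l, the dynamin-like GTPase of mitochondrial fission, was higher at 1.41 (1.20 to 1.62), with levels of 269.7 and 716.8. Tmbim1 was lower at -1.31 (-1.87 to -0.80). Itpr3, a calcium channel that faces mitochondria and binds BCL2 proteins, lay at -0.83, and Slc25a5 and Ghitm at 0.81 and 0.55. Counts in these lists are read beside the 12.1% called higher and 19.1% called lower among symbols with a level of at least 1. Among symbols with a mean level of at least 50, as most list genes have, these shares were 6.85% and 7.4%. Casp1, Dffb and Sfn, at 0 in 1 library, passed the level filter only through the other. The counts of the lists that hold them are not read against these shares.

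**Figure D5:**
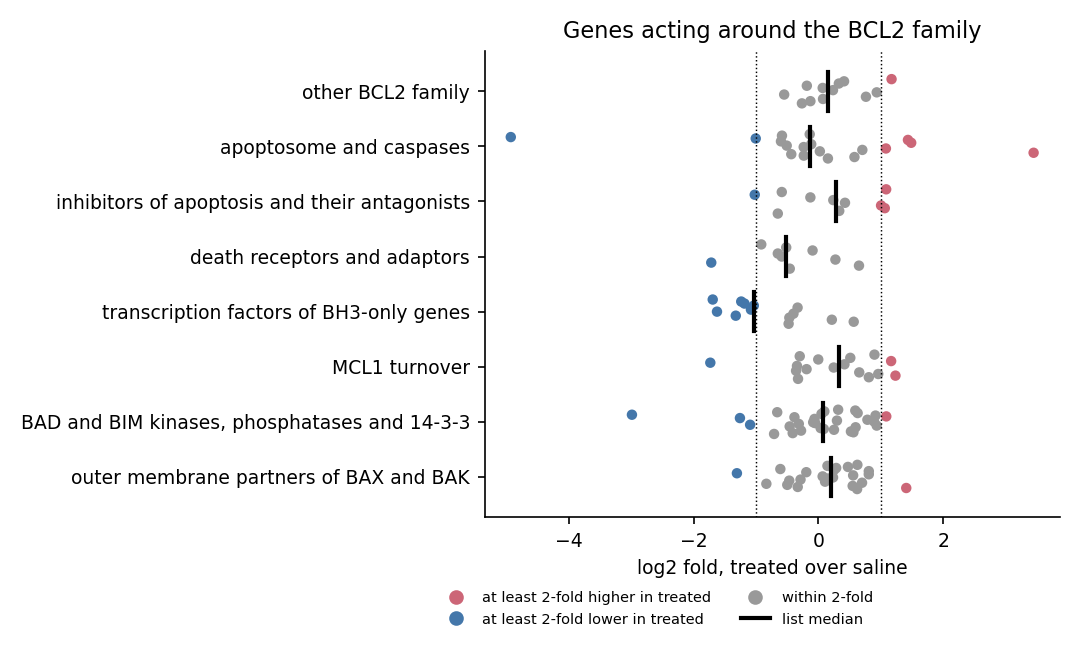
Log2 fold of each listed gene in 8 gene lists around the BCL2 family, with the list median as a black bar; red and blue points passed the 2-fold rule (dotted lines) and grey points did not. The list of transcription factors of BH3-only genes has its median at -1.04, the others between -0.52 and 0.33.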

How the data were processed

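Strand-specific TruSeq libraries were made from total RNA, per the labels' protocols. The submitters' processing notes list the tools FastQC, STAR 2.5, Cuffnorm and DESeq 1.22.1, with no role given to any. No source used here gives the genome build, the annotation or the counting settings. The authors deposited a log2 value for each transcript. Its antilog minus 1 was, for 100% of transcripts in either library, a whole number of equal steps (tolerance 1e-06 reads), from which read counts and size factors (saline 1.15, treated 0.605) followed. The p-values deposited by the authors, raw and adjusted, are quoted only. There were 4 other columns with values per sample, left unused because they repeat the same values.

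Transcripts were added up per symbol, leaving out 1276 that have none. No count model and no test were run. Fold intervals were derived from exact (Clopper-Pearson) limits on the fraction of a gene's reads found in the treated library, those of ratios from the exact conditional odds ratio, and those of levels from the Poisson distribution. They cover counting error only, as reads are not independent molecules. For list medians, a gene at 0 in 1 library was also compared with a floor of 3 reads, a level of 2.60 (saline) or 4.95 (treated). In the lists around the family this concerned Casp1, Dffb and Sfn. Each stayed on the same side of its list median, so these medians could not move.

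The members and the 8 further lists (153 names over all lists, 132 listed) were chosen with earlier results of these data known. A further list is not reported here. Named were all members, all further family genes, and per further list the 3 largest differences among genes with a mean level of at least 50 and the 2 highest means; other genes are said to be named afterwards. Promoter motifs (12 names) were chosen after the values were seen. Alternatives were pseudocounts of 0.5 and 5, other filters, 3 rescalings, the leading transcript alone, protein coding transcripts only and members left out of the ratios. The steps were tested on simulated data. Software was Python 3.11.15 with NumPy 2.4.6, pandas 2.3.3, SciPy 1.17.1 and, for plots, Matplotlib 3.10.9.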

Additional observations from a re-analysis of the deposited data

How the results depend on the processing

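With 1 library per group, no alternative measures the spread between cultures. The saline library had 1.84 times as many reads over the listed transcripts. The 7 genes stayed within 2-fold under every pseudocount and rescaling run. They also did so with the transcript of highest mean level of each gene alone. The other Bax transcript, ENSRNOT00000087061, lay beyond 2-fold by itself, at -1.15 (-1.53 to -0.80). The rescalings shifted all folds by -0.056 (library totals made equal), 0.014 (TMM factors) and 0.022 (median of ratios). Of the results that answer a comparison, 93 alternative values moved by less than the counting interval, or for counts less than 1.5 times, and 6 moved by more. Some of the 93 could not move. A filter changes no fold, so with none of the 7 genes past the rule their counts could not move under any filter. The protein coding choice removed no member transcript, and Bid and Bad have 1 transcript each. The rescalings, too, shifted folds by little beside the counting intervals. With the leading transcript alone, Bax lay at -0.18, the prosurvival to effector ratio changed by 0.14 and the prosurvival to effector and BH3-only ratio by 0.11 instead of 0.28. Without Bak1 the prosurvival to effector change was 0.62, and the prosurvival to BH3-only change was -0.19 without Bcl2l11 and 0.39 without Bid. Among single further genes and lists, 366 alternative values stayed within those limits and 8 did not, 4 of these with a level of at least 50 required. With that filter, the apoptosome and caspase list held 2 higher and 1 lower genes and the MCL1 turnover list 0 lower. The apoptosome and caspase list also held 1 lower gene with a pseudocount of 5, TMM factors or the median of ratios, and with the latter the list of inhibitors of apoptosis held 0 lower. Using protein coding transcripts only, an alternative chosen after the data were seen for the transcript shares, could move no share. All listed transcripts of the members are protein coding, so these values, counted among the 366, carry no information. No paired analysis was possible because each group has 1 library.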

Other observations

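Other death programmes were read from 2 lists whose genes were chosen after the family's values were seen. In a list of inflammasome and pyroptosis genes, 5 of 12 listed were higher and 0 lower in the treated library. Casp1 (0 and 6 reads) and Il1b (0 and 11 reads) passed the level filter only through the treated library, and Casp4 was no longer called with a pseudocount of 5, so the count is not read against that of all symbols. Txnip, a thioredoxin-binding protein that can activate NLRP3, had levels of 6122 and 13435 and was higher at 1.13 (1.09 to 1.18). Aim2, a sensor of cytosolic DNA, was higher at 1.47 (0.83 to 2.18), with 33 reads in the saline and 49 in the treated library. Nlrp3 lay at -0.21 (-0.76 to 0.32), the adaptor Pycard at -0.80 (-1.45 to -0.21) and the pore protein Gsdmd, with 11 and 4 reads, at -0.47.

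In a list of ferroptosis control genes, 1 of 14 was higher and 0 lower, with a median of -0.18. Over symbols with a level of at least 1 in at least 1 library, 12.1% were called higher and 19.1% lower. Among those with a mean level of at least 50, the shares were 6.85% and 7.4%. Acsl4, which loads membranes with oxidisable fatty acids, was the higher one at 1.17 (1.099 to 1.25), with levels of 2306 and 5203. Gpx4, the peroxidase that repairs oxidised lipids, lay at 0.14 (0.038 to 0.24), the cystine transporter gene Slc7a11 at -0.23 (-0.46 to -0.012) and its partner Slc3a2 at -0.53 (-0.63 to -0.43). Sat1, a polyamine acetyltransferase, lay at 0.80 (0.69 to 0.90).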
